A study of Mus musculus with 9 samples.

Results

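The cells described here are the control cultures of a study of mouse mesenchymal stem cells, multipotent stromal cells grown from adult C57BL/6 bone marrow and used at passages 4 to 10. The 3 control libraries (siCTL) were chosen by their sample titles from the 9 RNA libraries of the series, and the 6 others, from cultures given beta-catenin siRNA or the Ezh2 inhibitor GSK126, were not used. Cells were plated at 10000 per cm2 in medium with 10% serum, received a non-targeting siRNA 1 day later, and were then kept in osteogenic medium (50 µg/ml ascorbic acid and 10 mM beta-glycerophosphate). They were lysed on day 4. All of these cultures carried the non-targeting siRNA, so the values describe transfected cells, and no untransfected or day 0 culture was analysed here. The design text calls the replicates biological, but the labels do not say whether they came from separate animals.

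Marrow stromal cells support blood formation by secreting niche factors such as Cxcl12 and Kitl, and can give rise to bone, fat and cartilage cells. Ascorbic acid is a cofactor for collagen hydroxylation, and beta-glycerophosphate supplies phosphate for mineral. In the bone lineage, the transcription factors Runx2 and then Sp7 act before matrix maturation, which is followed late by osteocalcin (Bglap). Levels are given as TPM, a length-scaled transcript abundance: each count divided by the coding length in the deposited table and scaled to sum to 1000000 in each library, so that genes of different length can be compared.

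The libraries held 44506814, 45683906 and 46516898 counts. All values were even, so each sequenced fragment may stand for 2 counts. Of 23358 gene entries, 11589 (49.6%) had a count in all 3 libraries and a mean of at least 1 TPM, and count as detected below. A further 7004 entries had no count in any library. Detected genes had a median of 27.2 TPM, and 120 entries reached 1000 TPM. The 470 most abundant genes held 50% of the summed TPM, and the 100 most abundant held 29.5% ± 0.0390 (SD, n = 3).

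The 4 genes that mark the cells were all abundant. Spp1, which encodes the secreted mineral-binding phosphoprotein osteopontin (chromosome 5, 104435111 to 104441053 on mm10), stood at 17742, 17691 and 19871.5 TPM in replicates 1 to 3 and was the most abundant entry. Col1a2, a chain of type I collagen (chromosome 6, 4505697 to 4541543), stood at 7763, 7829 and 7001 TPM and ranked 4. Fn1, or fibronectin (chromosome 1, 71585523 to 71653171), stood at 4544, 4418 and 4473 TPM and ranked 16. In all of these the libraries lay close together, although replicate 3 was highest for Spp1 and lowest for Col1a2. The chemokine gene Cxcl12 (chromosome 6, 117168535 to 117181368) stood at 1296, 1322 and 1340 TPM and ranked 93. Without division by length, Col1a2 ranked 1, Fn1 2, Spp1 4 and Cxcl12 17.

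The promoters of 3 of these markers are shown beside that of the osteocalcin gene Bglap, a late bone gene that was almost silent here (2, 2 and 0 counts), to set abundant genes and a near-silent lineage gene side by side. Each run covers 250 bases before and 50 after a RefSeq start on GRCm38.p6, 5′ to 3′ on the gene's strand. Capitals mark matches on either strand to the 4 motifs searched. The TATA box was searched as TATAAA and the GC box, to which Sp factors bind, as GGGCGG. The Runx core was searched as ACCACA, and the CCAAT box by the letters of its name.
Spp1, chr5:104434861-104435160, plus strand: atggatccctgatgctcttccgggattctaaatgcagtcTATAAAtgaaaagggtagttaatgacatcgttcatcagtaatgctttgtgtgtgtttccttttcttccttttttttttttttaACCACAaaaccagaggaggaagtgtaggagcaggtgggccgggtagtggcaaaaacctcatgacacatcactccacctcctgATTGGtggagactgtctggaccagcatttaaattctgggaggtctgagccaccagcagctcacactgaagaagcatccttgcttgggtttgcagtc
Col1a2, chr6:4505368-4505667, plus strand: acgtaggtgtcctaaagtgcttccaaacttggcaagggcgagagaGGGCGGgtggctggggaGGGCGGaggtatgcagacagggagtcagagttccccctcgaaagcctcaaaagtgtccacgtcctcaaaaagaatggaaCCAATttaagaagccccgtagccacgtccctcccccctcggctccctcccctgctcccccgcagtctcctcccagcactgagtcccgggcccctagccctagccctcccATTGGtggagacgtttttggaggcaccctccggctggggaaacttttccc
Cxcl12, chr6:117168285-117168584, plus strand: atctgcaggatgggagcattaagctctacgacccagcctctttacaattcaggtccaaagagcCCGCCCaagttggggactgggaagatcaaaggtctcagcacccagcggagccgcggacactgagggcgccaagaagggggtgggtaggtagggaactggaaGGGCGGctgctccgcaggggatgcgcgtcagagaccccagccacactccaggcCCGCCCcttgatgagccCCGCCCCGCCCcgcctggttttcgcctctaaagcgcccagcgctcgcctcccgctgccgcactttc
Bglap, chr3:88384417-88384716, minus strand: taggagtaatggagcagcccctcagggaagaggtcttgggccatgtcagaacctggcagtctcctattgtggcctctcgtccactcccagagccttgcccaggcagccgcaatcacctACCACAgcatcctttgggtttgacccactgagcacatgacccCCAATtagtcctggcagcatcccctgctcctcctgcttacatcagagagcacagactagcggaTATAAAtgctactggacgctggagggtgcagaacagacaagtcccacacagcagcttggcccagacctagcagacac
The window of Cxcl12 held 5 GC box matches, of which the last pair share a base, and no other motif searched. That of Bglap held a TATA box match starting 27 bases before the start, a CCAAT box match 90 bases and a Runx core match 132 bases before it. The window of Spp1 also held a Runx core match, 128 bases before the start. Its TATA box and CCAAT box matches lay 211 and 46 bases before the start. The window of Col1a2, whose RefSeq start lies 79 bases from that of the count table, held CCAAT boxes and GC boxes. Spp1 and Bglap thus both carried Runx core, TATA box and CCAAT box matches, with levels at opposite ends of the range. Over 15711 promoters matched by symbol, TATAAA was found in 12.9%, CCAAT in 39.0%, GGGCGG in 47.9% and ACCACA in 14.5%. Among promoters of genes at 1 TPM or more (8283), GGGCGG was in 67.8% and TATAAA in 6.71%, against 16.8% and 24.6% among genes with no count (4439). The median GC content of these windows was 61.3% and 46.7%, and its part in the motif contrast was not tested. The 70 matched promoters of the 100 most abundant genes held GGGCGG in 55.7%, CCAAT in 32.9% and TATAAA in 14 cases. A match is a string of letters and not a measured binding site.

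**Figure D1:**
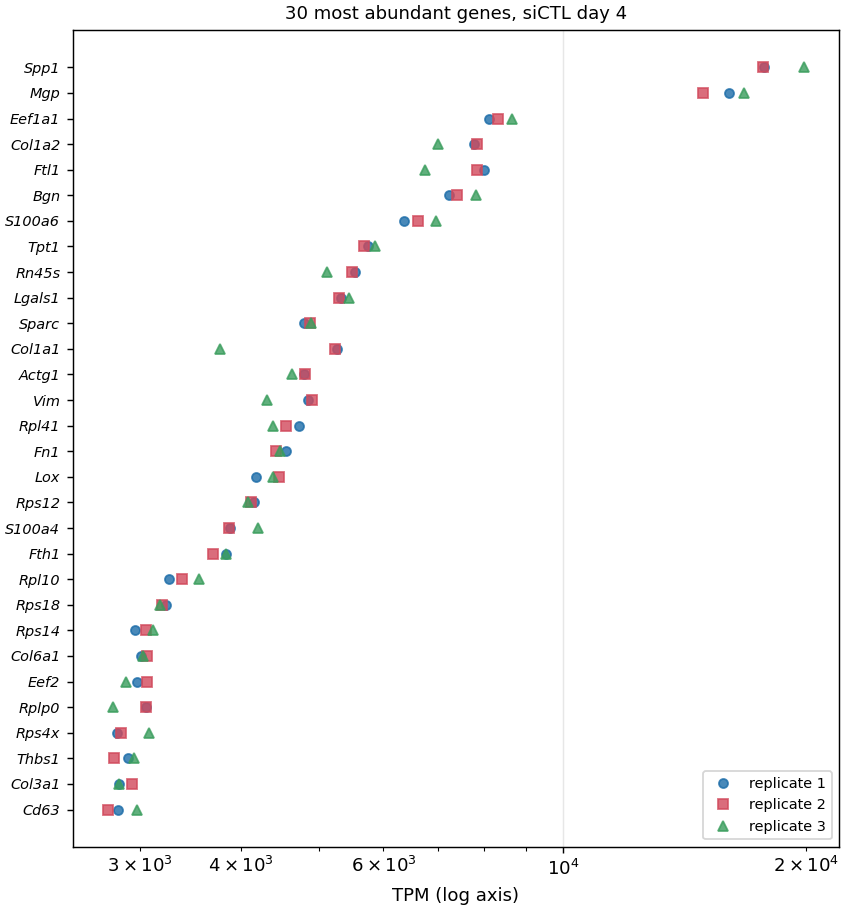
TPM in each of the 3 siCTL libraries (log axis) for the 30 genes of highest mean, 1 symbol per library. Spp1 and Mgp stand above all others, and replicate 3 lies below the other libraries for Col1a1.

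Matrix genes and the translation machinery made up much of the 100 most abundant genes by TPM. After Spp1 came Mgp, or matrix Gla protein, a secreted inhibitor of calcification, at 16047, 14922 and 16729 TPM. The 148 genes of the matrix lists together held 10.7% ± 0.0651 of the summed TPM (SD, n = 3), and 16 of them were among the 100 most abundant genes. Another 12.3% ± 0.0779 fell to 87 cytosolic ribosomal protein genes, 48 of them among those 100. Without division by length Rps12 ranked 96 in place of 18 and Rpl41 102 in place of 15, while Rpsa ranked 56 in place of 69. Other genes in the first 20 were the translation elongation factor Eef1a1 (8361 ± 277 TPM), the ferritin chains Ftl1 (7522 ± 663) and Fth1 (3786 ± 79.7), the calcium-binding proteins S100a6 (6653 ± 301) and S100a4 (3981 ± 190), the growth-associated protein Tpt1 (5758 ± 94.3), the galectin Lgals1 (5344 ± 78.1), the cytoskeletal genes Actg1 (4741 ± 99.5) and Vim (4679 ± 323), and Rpl41 and Rps12. The ribosomal RNA precursor entry Rn45s ranked 9 at 5377 ± 230 TPM, or 0.538% of the total. Ribosomal proteins, ferritins and actins have near-identical copies in the genome, so their levels are uncertain.

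Of 148 matrix genes, 102 were detected (68.9%, against 49.6% of all entries). Of 43 collagen chain genes 20 were detected (46.5%), near the share of all entries. Type I chains led, with Col1a2 at 7531 ± 460 and Col1a1 at 4750 ± 853 TPM (SD, n = 3). Col1a1 stood at 5256, 5229 and 3766 TPM, so that replicate 3 lay well below the other libraries, while for Col1a2 the libraries lay closer together. Next were the type VI chains Col6a1 (3033 ± 27.3) and Col6a2 (2557 ± 196), of microfibrils around cells, and the fibrillar chain Col3a1 (2865 ± 61.1). The basement membrane chain Col4a1 was at 1141 ± 52.2 TPM.

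Of 61 other matrix genes, 47 were detected (77.0%). After Spp1 and Mgp the highest were the small proteoglycan Bgn (7485 ± 298 TPM), the collagen-binding protein Sparc (4843 ± 55.4) and Fn1 (4479 ± 63.2), each with all 3 libraries above those of the next gene. The thrombospondins Thbs1 (2877 ± 82.4) and Thbs2 (2492 ± 50.7) and the procollagen processing enhancer Pcolce (2425 ± 49.5) followed. Small proteoglycans differed widely: Bgn stood at 7485 TPM, Ogn at 610, Dcn at 4.67 ± 0.432 and Lum at 0.427 ± 0.0937 TPM. Among 44 matrix enzymes and inhibitors, 35 were detected (79.5%). The collagen cross-linking enzyme Lox (4336 ± 148 TPM) was highest, ahead of the membrane collagenase Mmp14 (1168 ± 22.6), the prolyl hydroxylase subunit P4hb (1134 ± 11.5), the collagen chaperone Serpinh1 (998) and the cathepsin Ctsl (961). Mmp14 and P4hb were not separated over all 3 libraries, nor were Serpinh1 and Ctsl.

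**Figure D2:**
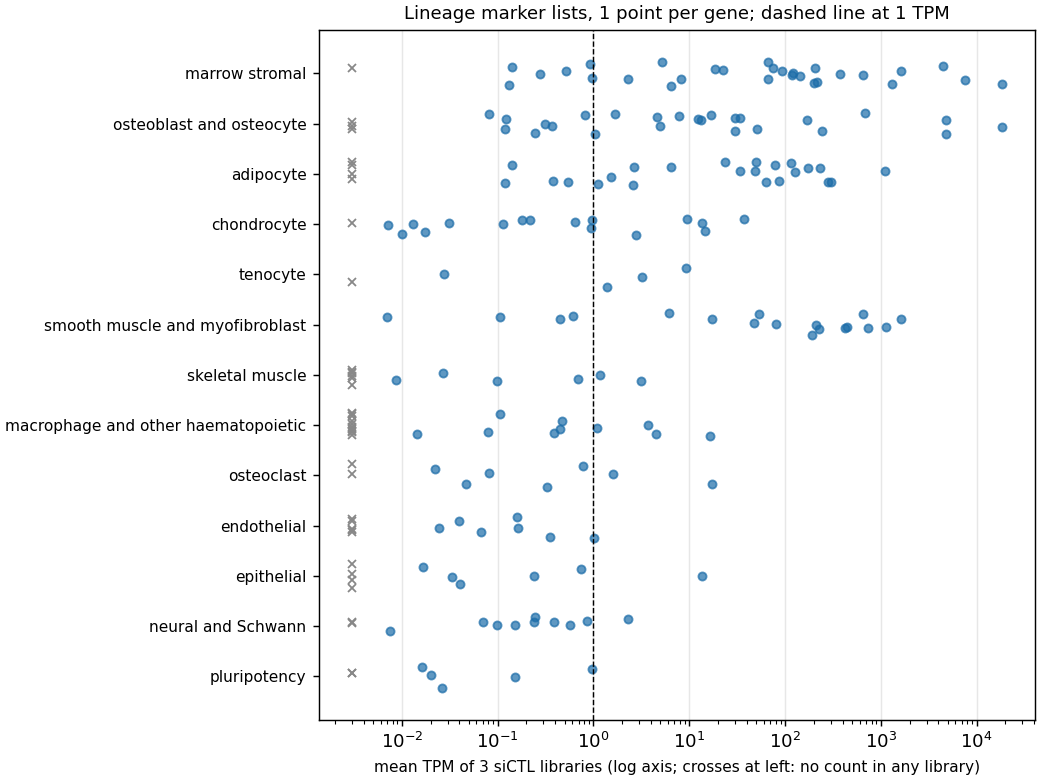
Mean TPM of the 3 siCTL libraries (log axis) for each gene of 13 lineage marker lists, with crosses at the left for genes with no count in any library and a dashed line at 1 TPM. Stromal, bone, fat and contractile lists reach above 1000 TPM, while no endothelial or neural gene passes 3 TPM.

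Of 204 genes in all lineage lists, 91 were detected (44.6%, against 49.6% of all entries). Marrow stromal genes were mostly present, with 23 of 30 detected (76.7%) and a list median of 70.5 TPM. Beside the 4 markers, high members were the smooth muscle actin Acta2 (1638 ± 60.2 TPM), the integrin chain Itgb1 (657 ± 30.3), the growth factor receptors Pdgfrb (379 ± 3.37) and Pdgfra (93.3 ± 2.68), and the limb mesenchyme transcription factor Prrx1 (203 ± 2.83). The niche genes Vcam1, an adhesion molecule, and Kitl, or stem cell factor, stood at 145 ± 4.16 and 119 ± 5.50 TPM. The niche transcription factor genes Foxc1 and Ebf3 stood at 74.1 ± 1.01 and 22.5 ± 0.522 TPM, and the intermediate filament gene Nes at 18.5 ± 0.417 TPM. Several surface genes commonly used to define these cells were low or missing. Thy1 (CD90) had no count in any library, which allows at most 0.191 TPM per library (3 fragments, or 6 counts). Lepr, the leptin receptor of perivascular marrow stroma, was at 0.278 ± 0.0970 TPM, Nt5e (CD73) at 0.913 ± 0.231 and Eng (CD105) at 5.18 ± 0.355, while Ly6a (Sca-1) was at 65.9 ± 6.03 and Cd44 at 66.8 TPM. In bulk RNA, fewer cells of a type and less RNA per cell cannot be told apart.

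Of 28 osteoblast and osteocyte genes, 18 were detected (64.3%, against 49.6% of all entries), with a median of 6.39 TPM. Secreted matrix genes were at the top (Spp1, Sparc and Col1a1), followed by Ank, a pyrophosphate transporter (681 ± 22.0 TPM), and Enpp1, which makes pyrophosphate (242 ± 5.80). Pyrophosphate restrains mineral growth. Alpl, the phosphatase that removes it, stood at 7.69, 8.46 and 7.20 TPM, far below both. Among the transcription factors, Runx2 stood at 29.7, 29.1 and 32.1 TPM, whereas Sp7, which acts after it, stood at 0.743, 0.580 and 1.14 TPM. All 3 libraries were higher for Runx2 than for Sp7. Dlx5, another bone regulator, stood at 1.93, 2.35 and 0.771 TPM (48, 60 and 20 counts), with replicate 3 under 1 TPM.

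Late bone genes did not follow 1 pattern. Dmp1 and Phex, regulators of phosphate and mineral in osteocytes, stood at 33.6 ± 2.89 and 13.3 ± 0.315 TPM. Ibsp, or bone sialoprotein, was at 0.244 ± 0.138 TPM, Bglap had 0 to 2 counts per library and its copy Bglap2 2 to 4. The osteocalcin copies are near-identical, so their counts are uncertain, yet no member reached 1 TPM. Sost, Mepe and Fgf23, made by osteocytes, had no count in any library. Of the osteoclast regulators made by this lineage, the decoy receptor Tnfrsf11b (osteoprotegerin) stood at 30.2 ± 1.04 TPM and its ligand Tnfsf11 (RANKL) at 0, 2 and 8 counts.

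Fat cell genes were present without adipogenic medium, with 19 of 27 detected (70.4%, against 49.6% of all entries) and a median of 23.4 TPM. Lpl, the lipase that releases fatty acids from lipoproteins, led at 1067, 1113 and 1129 TPM. The desaturase Scd1 (299 ± 13.1 TPM), the lipid droplet coat Plin2 (279 ± 12.2) and the fatty acid carrier Fabp4 (231 ± 9.27) followed. Both master regulators were detected: Cebpa stood at 173 ± 7.07 TPM and Pparg at 79.1 ± 1.62, each above Runx2 in all 3 libraries. Other genes of mature fat cells were uneven. The droplet coat Plin4 stood at 126 ± 1.97 TPM, while the adipokine Adipoq stood at 5.69, 5.73 and 7.92 TPM and the droplet coat Plin1 at 0.945, 1.15 and 1.25. Cfd and Cd36 stood at 0.121 and 0.141 TPM, and Lep, Retn, Cidea and Ucp1 had no count.

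Cartilage genes were fewer, with 5 of 17 detected (29.4%, against 49.6% of all entries) and a median of 0.220 TPM. The detected members were Col10a1, the collagen of hypertrophic cartilage (37.6 ± 3.05 TPM), Col11a1 (14.5), the cartilage regulator Sox9 (13.6, 15.3 and 12.3 TPM), Col2a1 (9.51 ± 1.67) and Sox5 (2.81). The cartilage regulators Sox6 and Ihh had 6, 2 and 0 and 4, 0 and 0 counts. Acan, the main cartilage proteoglycan, had 0, 4 and 0 counts, and Matn1 had none. Of 5 tendon genes, Mkx (9.25 ± 0.188 TPM), Scx (3.23 ± 0.905) and Fmod (1.39) were detected, and Thbs4 had no count. The tendon marker Tnmd had 0, 2 and 0 counts.

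Contractile genes were abundant. Of the smooth muscle and myofibroblast list 14 of 18 were detected (77.8%, against 49.6% of all entries), with a median of 136 TPM. Acta2 (1638 ± 60.2 TPM), the calponin Cnn2 (1133 ± 59.1), caldesmon Cald1 (743), the myosin heavy chain Myh9 (649) and the light chain Myl9 (446) were highest. The later calponin Cnn1 stood at 17.4 ± 1.26 TPM. Myh11, the myosin of mature smooth muscle, was at 0.105 ± 0.0397 TPM, and its coactivator gene Myocd had 0, 0 and 2 counts. Of 12 skeletal muscle genes Acta1 (3.11 TPM) and Mylpf were detected. Mylpf stood at 1.05, 0.438 and 2.01 TPM (14, 6 and 28 counts), and without replicate 3 its mean of 0.744 TPM was under the detection level. Tnnc2 was at 0.693, Tnnt3 at 0.0981 and Ckm at 0.0266 TPM, and Myod1, Myog, Myf5, Myf6, Myh3 and Myh8 had no count.

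Most markers of other cell types were not detected, although a few reached more than 10 TPM. Of 20 macrophage and other haematopoietic genes, 4 were detected, with a summed level of 27.4 TPM: Cd14 (16.6 ± 2.25), Kit (4.46 ± 0.209), Cd68 (3.72 ± 0.783) and Cd74 (1.10 ± 0.173). Ptprc (CD45), Emr1, Itgam, Tyrobp, Cd3e, Gata1, Hba-a1, Hbb-b1 and Mpo, defining blood cell genes, had no count in any library. For Ptprc this allows at most 0.0586 TPM. Of 9 osteoclast genes, Nfatc1 (17.5 TPM) and Atp6v0d2 (1.59) were detected, while Ocstamp (0.773), Oscar (0.324) and the RANKL receptor Tnfrsf11a (0.0809) lay below 1 TPM. Acp5, the phosphatase of osteoclasts, had 0, 0 and 2 counts, and Dcstamp and Calcr none. The osteoclast list did not include the cathepsin Ctsk, which was placed among the marrow stromal genes and stood at 214, 211 and 225 TPM.

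Among 12 endothelial genes 1 was detected, Plvap at 0.842, 1.04 and 1.13 TPM, and without replicate 2 or 3 its mean fell below 1 TPM. Vwf, Kdr and Esam stood at 0.354, 0.162 and 0.158 TPM, Pecam1 had 4 counts in each library, and Cdh5, Tie1, Cldn5, Erg and Sox17 had none. Of 10 epithelial genes the keratin Krt19 (13.8 ± 1.29 TPM) was detected. Krt18 stood at 0.741, Krt8 at 0.243, Cldn4 at 0.0408 and Cdh1 at 0.0330 TPM, and Epcam, Krt14, Esrp1 and Grhl2 had no count. In the neural and Schwann list S100b (2.32 ± 0.594 TPM) was the member detected of 12, ahead of Tubb3 (0.857), the myelin gene Mbp (0.384), and with Sox10 and Rbfox3 at no count. No pluripotency gene of 7 was detected: Nanog was at 0.974 TPM, a value that pseudogene copies make uncertain. Sox2 was at 0.150, Pou5f1 at 0.0261, Zfp42 at 0.0201 and Esrrb at 0.0163 TPM, and Lin28a and Dppa5a had no count.

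Of 255 secreted signalling genes, 106 were detected (41.6%, against 49.6% of all entries). By list the share ran from 9.09% for FGF ligands to 75.0% for TGF-beta and activin ligands. Beside Spp1 and Cxcl12 the highest were the glycoprotein Fstl1 (1001 ± 28.0 TPM), the cytokine Mif (536 ± 125), the vessel-stabilising ligand Angpt1 (446 ± 26.5) and the macrophage growth factor Csf1 (302 ± 8.44). Mif stood at 618, 598 and 391 TPM, with replicate 3 lowest. Bmp1, at 340 ± 13.4 TPM, is a procollagen proteinase and not a BMP ligand despite its name. Among BMP ligands proper, Bmp4 was at 12.8 ± 1.08 TPM and Bmp2 at 0.352 ± 0.0773, whereas Gdf11, Gdf15 and Gdf7 were at 44.5, 40.7 and 2.72. Secreted antagonists of these ligands were detected in 8 of 13 cases: after Fstl1 came Twsg1 (122 ± 2.73), and then Chrd (5.53), Dand5 (5.51) and Fstl3 (4.92), which were not separated over the libraries. Activin and TGF-beta ligands were detected in 6 of 8 cases, led by Tgfb3 (204 ± 2.48), Tgfb1 (102 ± 15.9) and Inhba (91.5), with Tgfb2 (42.4) and Inhbb (32.6) next.

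Wnt ligands were detected less often than all entries (21.1% against 49.6%), and secreted Wnt modulators about as often (52.9%). Summed levels were 61.3 TPM for the ligands and 493 TPM for the modulators. Of 19 Wnt ligands 4 were detected: Wnt5a (41.0 ± 0.738 TPM), Wnt5b (13.8 ± 1.39), Wnt10b (3.83) and Wnt9a (1.23). Wnt2b was at 0.597, and 9 had no count. Of 17 secreted modulators 9 were detected, with Rspo2, which amplifies Wnt signals, at 184 ± 6.83 TPM. Secreted antagonists or relatives of them followed, namely Dkk3 (91.8 ± 2.83), Sfrp2 (78.7 ± 2.26), Frzb (53.5) and Sfrp1 (41.9). Of 22 FGF ligands, Fgf7 (185 ± 10.4) and Fgf2 (43.7 ± 2.67) were detected. Fgf10 (0.756), Fgf22 (0.609) and Fgf18 (0.341), a bone growth regulator, lay below 1 TPM, and 11 had no count.

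Among 33 ligands of the IGF, PDGF, VEGF, EGF and HGF families 22 were detected. After Angpt1 came Vegfa (160 ± 3.49 TPM), Hgf (139 ± 4.23), Pros1 (108), a ligand of Tyro3 and Mertk, and Pdgfd (93.4), and Igf1 was at 6.24 ± 0.687. Of 36 chemokines 8 were detected. Cxcl12 was more than 10 times the next, Ccl7 (98.4 ± 6.35), and Cx3cl1 (71.6), Ccl2 (62.9 ± 5.01) and Ccl9 (8.99) followed. Of 43 cytokine genes 16 were detected, among them the interleukin 1 antagonist Il1rn (192 ± 6.93), and Il6 was at 0.439 ± 0.146 TPM. In the Notch, ephrin and semaphorin list, with 24 of 41 detected, the guidance genes Sema3a (130 ± 5.70), Sema5a (114) and Sema7a (103) led, with Efnb1 (45.1) and Slit2 (26.0) next. Sema3a was above Sema5a in all 3 libraries.

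**Figure D3:**
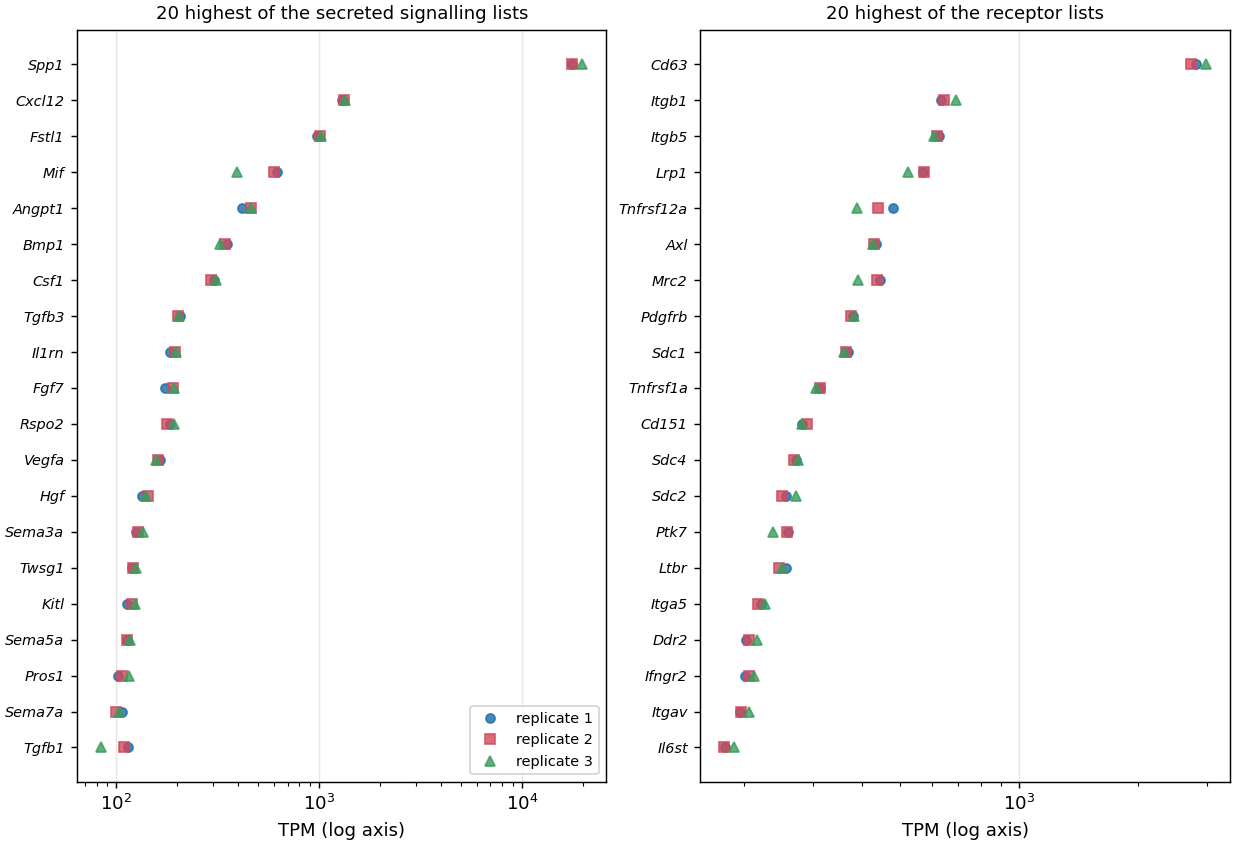
TPM in each of the 3 siCTL libraries (log axes) for the 20 highest genes of the secreted signalling lists (left) and of the receptor lists (right), 1 symbol per library. Spp1 and Cd63 lead their panels, and replicate 3 lies below the other libraries for Mif and Tnfrsf12a.

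Receptors were detected in 177 of 303 cases (58.4%, against 49.6% of all entries). By list the share ran from 34.0% for G protein-coupled receptors to 73.9% for Wnt receptors. Receptor tyrosine kinases (53.1%) lay near the share of all entries. Integrins and matrix receptors led, with 28 of 41 detected: the tetraspanin Cd63 (2843 ± 120 TPM), which acts largely in vesicles, the integrin chains Itgb1 (657 ± 30.3) and Itgb5 (618 ± 8.21), and the endocytic receptors Lrp1 (556) and Mrc2 (424). Integrin alpha chains Itga5, of the fibronectin receptor, and Itgav, of receptors for osteopontin and other matrix proteins, stood at 222 ± 4.94 and 200 ± 6.05. Of 49 receptor tyrosine kinases 26 were detected, with Axl (430 ± 3.35), Pdgfrb (379 ± 3.37), the collagen receptor Ddr2 (209 ± 7.03), Fgfr1 (126 ± 4.32) and Pdgfra (93.3 ± 2.68) highest, each above the next in every library. Of 45 cytokine receptors 31 were detected, led by Tnfrsf12a (435 ± 44.9), Tnfrsf1a (311), Ltbr (250), Ifngr2 (207) and the shared signalling chain Il6st (182).

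Wnt receptors were detected in 17 of 23 cases. Ptk7 (252 ± 11.9 TPM), Fzd1 (95.4 ± 4.21), Ryk (81.5), Lrp6 (75.0 ± 1.47) and Lgr6 (67.7 ± 3.06) were highest. The R-spondin receptors Lgr4 and Lgr5 stood at 43.3 and 27.5 ± 2.52. Of 15 BMP and TGF-beta receptors 10 were detected, with Tgfbr3 (133 ± 2.76), Bmpr1a (93.9 ± 4.58), Tgfbr2 (78.8), Bmpr2 (73.4 ± 1.35) and Acvr1 (69.1) in order, and Bmpr1b had 2, 0 and 0 counts. Among G protein-coupled receptors 18 of 53 were detected: the thrombin receptor F2r (157 ± 1.06), the lipid receptors S1pr3 (122.5) and Lpar1 (121), the hedgehog transducer Smo (112 ± 3.83) and Gpr124 (80.0). Pth1r, the parathyroid hormone receptor of osteoblasts, was at 0.367 ± 0.112.

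In the list of Notch, hedgehog, neuropilin and plexin receptors 19 of 30 were detected, with Plxnb2 (182 TPM), Gas1 (162 ± 14.1), Nrp2 (150), Nrp1 (134) and Plxna1 (121) highest. The first pair could not be ordered over the libraries. Of 47 nuclear receptors 28 were detected, led by the retinoic acid receptor Rarg (117 ± 6.81), the thyroid hormone receptor Thra (97.8), Rxra (89.9), Pparg (79.1 ± 1.62) and Nr1h2 (77.1). The progesterone receptor Pgr stood at 26.1 ± 1.09, and the vitamin D receptor Vdr at 13.0 ± 0.243.

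Several abundant ligands stood beside receptors that were scarce in the same cells. Cxcl12 was at 1319 ± 21.9 TPM, whereas its receptor Cxcr4 had no count in any library, which allows at most 0.183 TPM, and its second receptor Cxcr7 was at 0.186 ± 0.137. Angpt1 (446 TPM) stood beside Tek at 6, 2 and 2 counts, and Csf1 (302) beside Csf1r at 0.467 ± 0.0655. For Kitl (119) the receptor Kit was at 4.46. Other pairs were present together. Gas6 (30.2) stood beside its receptor Axl (430), Pros1 (108) beside Tyro3 (16.2 ± 0.502) and Mertk (10.03), Fgf7 and Fgf2 beside Fgfr1 (126) and Fgfr2 (16.9 ± 0.988), Hgf beside Met (12.9 ± 0.275), and Rspo2 beside Lgr4, Lgr5 and Lgr6. Receptor isoforms, which set the response to Fgf7, cannot be read from counts per gene.

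Of 515 transcription factor and cofactor genes, 298 were detected (57.9%, against 49.6% of all entries). By list the share ran from 41.0% for Hox genes to 91.2% for the list with Runx and Smad factors. The forkhead (53.8%), T-box and zinc finger (50.0%) and SOX and HMG (46.9%) lists lay near the share of all entries. The immediate early gene Egr1 was highest at 506, 502 and 464 TPM. Ybx1, an RNA- and DNA-binding protein (424 ± 11.0), Zfp36l1, which acts in mRNA decay (244 ± 26.2), the chromatin protein Hmgb1 (240 ± 10.6) and the stress regulator Nfe2l1 (214 ± 3.28) came next, so several of the highest listed genes are not sequence-specific factors alone. Egr1 was above Ybx1 in every library, and the same held for Ybx1 over Zfp36l1.

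**Figure D4:**
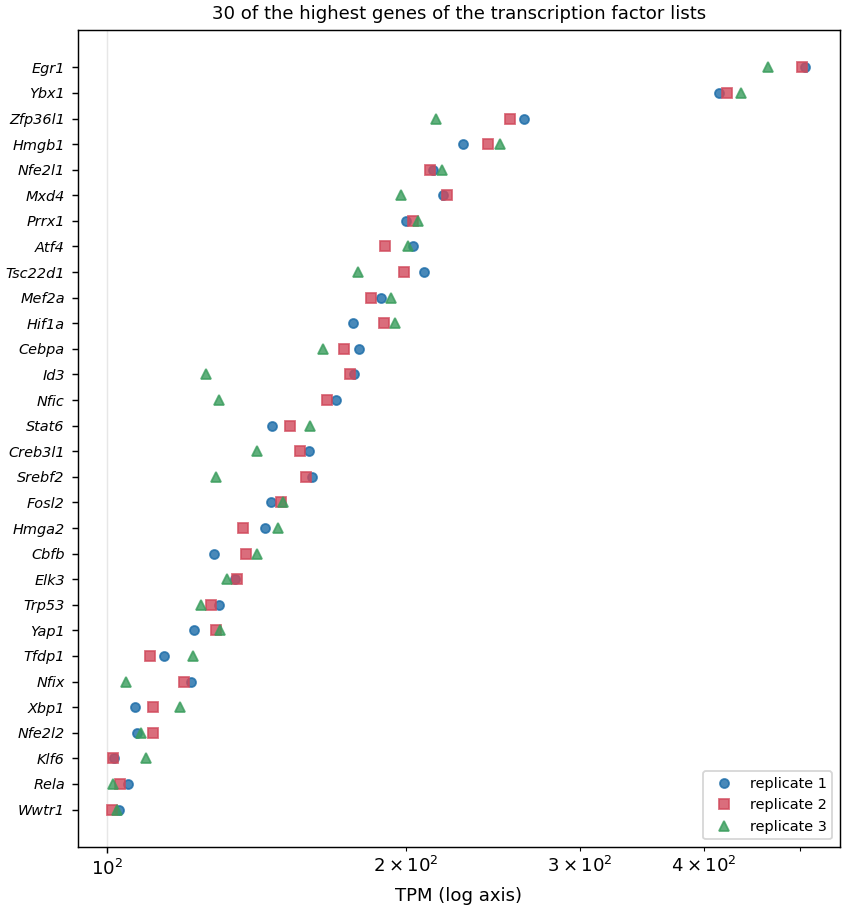
TPM in each of the 3 siCTL libraries (log axis) for 30 of the highest genes of the transcription factor lists, 1 symbol per library. Egr1 and Ybx1 stand apart at the top, the following genes form an unbroken slope from about the level of Zfp36l1 downward, and replicate 3 is lowest for Id3, Nfic and Srebf2.

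The AP-1 and ATF/CREB list had 29 of 34 members detected, with Nfe2l1 ahead of Atf4 (199 ± 6.83 TPM), Creb3l1 (153), a regulator of bone collagen secretion, Fosl2 (149) and Xbp1 (112). In the C/EBP, KLF and SP list (24 of 35), Egr1 was followed by Cebpa (173), Klf6 (104), Klf3 (78.4) and Sp3 (64.5). Of bHLH and Id genes 35 of 61 were detected, led by Mxd4 (212 ± 12.2), Hif1a (187 ± 9.32), Id3 (160), the sterol regulator Srebf2 (150) and Tcf4 (85.7). The mesenchymal regulators Twist1, Twist2 and Snai2 stood at 42.8 ± 5.05, 26.9 ± 4.75 and 88.0 ± 3.75. Twist1 lay at 46.6, 44.7 and 37.1 TPM, with replicate 3 lowest.

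The list with Runx, Smad and related factors had the highest share detected of the transcription factor lists, 31 of 34 (91.2%). Mef2a (189 ± 4.35 TPM), Nfic (156), the Runx partner Cbfb (136), the coactivator Yap1 (127) and Nfix (115) led it, and Runx1 (33.6) and Runx2 (30.3 ± 1.55) were close to each other. The libraries of Runx1 all lay above those of Runx2. ETS, STAT and related genes were detected in 42 of 55 cases, with Stat6 (153 ± 6.89), Elk3 (134), Trp53 (127), Rela (103) and Stat3 (86.3) highest. In the forkhead list (21 of 39) Foxc1 (74.1 ± 1.01), Foxk2 (56.7), Foxs1 (54.0), Foxo3 (48.8) and Foxp1 (41.2) led, and in the SOX and HMG list (15 of 32) Hmgb1, Hmga2 (143), Sox4 (93.9), Tcf7l1 (57.6) and Tox4 (54.0). The T-box and zinc finger list (40 of 80) had Ybx1, Zfp36l1, Tsc22d1 (196), Tfdp1 (116) and Snai2 at its top, and its T-box genes Tbx15 and Tbx18 stood at 69.9 ± 2.09 and 34.9 ± 1.21.

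Homeobox genes outside the Hox clusters were detected in 45 of 106 cases, with Prrx1 (203 ± 2.83 TPM) highest. Among the others, Adnp was at 94.3 and Tgif1 at 89.6 TPM. Pitx1, a hindlimb gene, stood at 17.6, 17.3 and 9.21 TPM, with replicate 3 lowest, and Shox2 at 21.1, 19.7 and 16.2 TPM. The limb T-box gene Tbx4 had no count and Tbx5 had 4, 0 and 4 counts.

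Hox genes, which give cells a position along the body and limb axes, split by cluster. Of the 11 Hoxa genes 9 were detected and of the 9 Hoxc genes 7, whereas none of the 10 Hoxb and 9 Hoxd genes was. Summed levels were 244 ± 4.04 TPM for Hoxa and 110.3 ± 7.09 for Hoxc, against 0.0282 ± 0.0489 for Hoxb and 0.717 ± 0.0943 for Hoxd (SD, n = 3). No Hoxb gene had more than 2 counts in a library, and 8 of them had none.

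Within the expressed clusters the posterior genes were highest. Hoxa11 stood at 93.0, 87.0 and 91.8 TPM, Hoxa10 at 73.0, 76.1 and 75.3, Hoxc10 at 52.6, 58.5 and 51.9, and Hoxa13 at 40.7, 44.4 and 35.8, each with all 3 libraries above those of the next. Hoxc13 followed at 18.1 ± 0.859, Hoxa9 at 12.3 ± 0.600 and Hoxc11 at 11.0. Hoxc12, between Hoxc11 and Hoxc13 in the cluster, had 2, 0 and 0 counts. The more anterior Hoxa4 was at 0.653 TPM. Hoxd13 and Hoxd10 to Hoxd12 had no count.

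**Figure D5:**
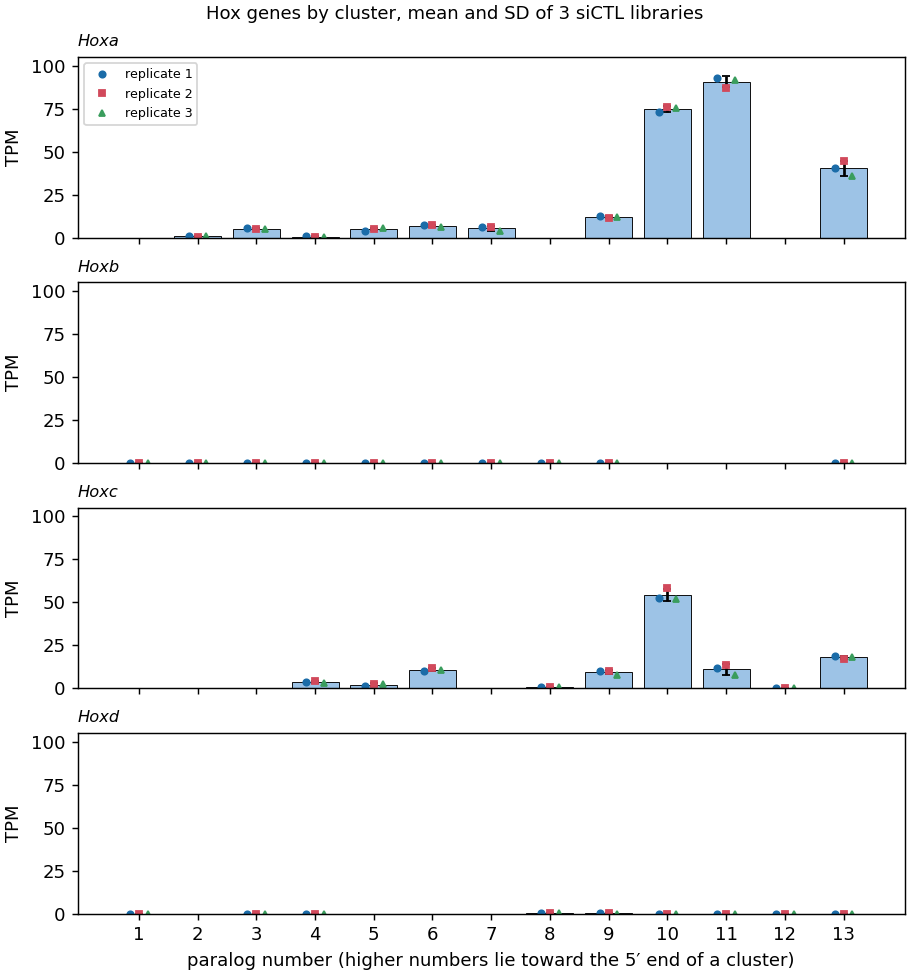
Mean TPM with SD of the 3 siCTL libraries (bars) and the value of each library (symbols) for 38 of the 39 Hox genes by cluster and paralog number, all panels on the same linear axis from 0. Hoxa10, Hoxa11 and Hoxc10 are the tallest bars, and the Hoxb and Hoxd panels are flat at this scale.

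The 3 libraries were alike in most genes. Over 8663 genes of at least 10 TPM the median coefficient of variation was 4.29%, and in 31 of them the highest library was more than 2 times the lowest. Pairs of libraries differed by more than counting noise. On counts divided by 2, the chi-square per degree of freedom, which is 1 under counting noise alone, was 2.65 for replicates 1 and 2, 9.10 for 1 and 3 and 6.85 for 2 and 3. Without Sap30l, described below, it was 1.89, 8.32 and 6.85. Replicate 3 stood somewhat apart by base composition. In the decile of genes with the most GC-rich transcripts (57.7 to 71.3% GC) its median deviation from the mean was -0.12 on the log2 scale, against 0.08 in replicate 1 and 0.05 in replicate 2. In the most AT-rich decile it was 0.07, against -0.05 and -0.02. Over genes of at least 10 TPM, the Pearson correlation of the deviation with GC content was 0.47, 0.30 and -0.56 in replicates 1 to 3. Among the genes that were low in replicate 3, the longest transcripts of Scand1, Ier5l and Col1a1 have 68.4%, 63.8% and 58.9% GC, within the GC-rich decile. Those of Rplp1 (3074, 2900 and 2037 TPM), Rplp2 and Atp6v0c have 57.3%, 55.0% and 52.0%, below that decile. The role of GC content in these values was not tested.

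The largest spreads among genes of at least 10 TPM belonged to few genes. Sap30l, a subunit relative of the Sin3 deacetylase complex, stood at 755, 34.0 and 31.9 TPM, with replicate 1 far above the others (20670 against 956 and 910 counts) and replicates 2 and 3 close together. Its transcript has 66.3% GC. Scand1 stood at 18.6, 17.9 and 3.42 TPM, Ier5l at 18.2, 11.2 and 3.48, Atp6v0c at 38.4, 38.7 and 10.3, and Rplp2 at 290, 254 and 81.6. In these 4 genes replicate 3 was the low library. The other genes of the 10 largest spreads were 1810043H04Rik and 4 microRNA entries (Mir143, Mir145, Mir3061 and Mir1191) of short length with 4 to 54 counts, for which a TPM carries a large counting error.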

How the data were processed

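RNA was measured in 3 siCTL libraries, grouped by sample title. The deposited table holds, for each gene, the authors' raw counts, a coding length in bases and an RPKM value. The submitters' processing notes list the mm10 build and the tools TopHat2 2.0.6, HTSeq and bcl2fastq; which annotation or strand setting was chosen is not given in the sources used here. Each deposited RPKM value is the count divided by the length and by a library total, of which the summed counts made up 90.0 to 90.6%. Only 37.8% of the lengths were multiples of 3, so coding length does not mean coding sequence alone. Of all entries, 69 share 26 names, and mitochondrial genes were not analysed here.

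TPM was computed over all 23358 entries in Python 3.11.15 with pandas 2.3.3, numpy 2.4.6 and matplotlib 3.10.9. A gene was detected at a mean of at least 1 TPM with a count in all 3 libraries. A gene with no count is limited to 3 fragments (6 counts) per library; this covers counting error only, and reads without molecular identifiers are not independent molecules. With 1 group no comparison between conditions was tested and p-values are not given; pairs of libraries were compared by a chi-square statistic over genes with at least 40 counts, which treats fragments as independent; separation of genes means that all 3 libraries of one lie above all 3 of the other. GC content came from the longest GENCODE M21 transcript of a symbol (91.4% of genes of at least 10 TPM). Promoters came from RefSeq, taking the start nearest to the table's. The TPM calculation was also run on simulated counts with counting noise alone between libraries, which checks the arithmetic only.

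The members and 44 gene lists were chosen with earlier results of these data known. Of each list the 5 highest members and those without counts were to be named, with the 20 most abundant genes and the 10 largest spreads; other genes were named for their role after their values were seen, and a few genes that the rule covers are not reported here. Alternatives were CPM, the deposited RPKM, scaling by edgeR 4.0.16 (TMM) or DESeq2 1.42.0 size factors in R 4.3.3, other detection levels, denominators and left-out libraries. Another 18 value columns, 6 of them without a sample here, were not used.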

Additional observations from a re-analysis of the deposited data

How the results depend on the processing

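Of 73 recomputed counts of detected genes and shares under 13 alternatives, 70 kept their size, which for counts means within 1.5 times and for the share of the 100 most abundant genes within 1 SD. Without division by length that share was 25.3%, and 12 of the 20 most abundant genes were still among the first 20. The ranks of 16 of these 20 moved by more than 1.5 times, such as Mgp from 2 to 16 and Rpl41 from 15 to 102. With any count in at least 1 library taken as detection, 163 lineage genes and 192 secreted signalling genes counted as detected, in place of 91 and 106. Receptors went from 177 to 265 there, which the rule of 1.5 times still counted as kept. The numbers of detected genes ranged from 9837 at 5 TPM to 16354 with any count. Leaving out each library gave 11603 to 11616 genes, and a share of 29.46 to 29.49%. The share could not be recomputed with those 100 genes outside the denominator. TMM and DESeq2 factors and the deposited RPKM rescale whole libraries, so they could not move that share. No paired analysis was possible because 1 group was described and no conditions were compared. Depth limits genes near 1 TPM, such as Mylpf, Nt5e, Nanog and Plvap, whose detection changed when 1 library was left out, and a TPM depends on the single length that the table gives each gene.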

Other observations

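Genes outside the lists above, gathered after the data were seen, showed that proliferation genes were present: all 20 examined were detected, with the D-type cyclins Ccnd2 (334 ± 4.81 TPM, SD, n = 3) and Ccnd1 (330 ± 4.47) highest, the replication clamp Pcna at 205, and the cycling-cell marker Mki67 at 18.9, 16.4 and 18.9 TPM. Of 10 Cdk inhibitor and p53 pathway genes 9 were detected. The p53 targets Ccng1 and Cdkn1a stood at 501 and 281 ± 14.4 TPM, Cdkn2a, which encodes p16 and p19, at 106.5, 100.4 and 82.3, and Cdkn1c at 0, 6 and 0 counts. Among 7 IGF binding proteins, Igfbp7 (697 ± 23.6) and Igfbp4 (570 ± 40.1) were high, Igfbp5 was at 2.78 ± 0.442, and Igfbp1 and Igfbp3 had no count.

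Imprinted growth genes differed widely. Gnas stood at 564 TPM, Igf2r, which clears IGF2, at 108, and Igf2 at 23.0 ± 1.87. H19, the neighbour of Igf2 on chromosome 7, had 0, 0 and 2 counts, Meg3 had 6, 2 and 0, and Rian and Snrpn had none. Of the sex chromosome genes, Eif2s3y (91.8 ± 6.53 TPM), Ddx3y (32.7 ± 1.88), Uty (16.1 ± 1.74) and Kdm5d (13.9 ± 0.949), all on the Y chromosome, were detected in every library, and Xist had 0, 2 and 6 counts. The labels do not give the sex of the mice.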
